A study of Rattus norvegicus with 18 samples.

Results

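In this comparison, subcutaneous fat of the abdomen of rats that lost weight after gastric bypass was set against that of rats given the same amount of food. The RYGB-Success group had 3 arrays and the Pair-Fed group 3 arrays, which together were 6 of the 18 arrays of the study and were picked by their titles. RYGB-Success stands for rats that were losing weight after Roux-en-Y gastric bypass, in which a small pouch of stomach is connected to the lower small intestine, and Pair-Fed for rats whose ration was held to what the treated rats ate. The design calls the 3 RNA samples of a group biological replicates, without saying whether each came from 1 animal, so p-values measure the spread between these samples. Strain, sex, age, diet, any sham operation of Pair-Fed rats and the time after surgery are not given in the sources used here. The other arrays held fat of 3 RYGB-Fail samples, which the labels set apart as rats gaining weight, and hypothalamus of the same 3 groups. The RYGB-Fail fat arrays entered the filter and the fit, so their spread is part of the SEs and p-values in fat. Their expression values are given only at the end.

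White fat under the skin is made of adipocytes, which store triacylglycerol and secrete hormones, and of a stroma of progenitor cells, fibroblasts, vessels, nerves and immune cells. The progenitors and fibroblasts build the collagen scaffold and the microfibrils around each adipocyte, and this scaffold is remodelled as adipocytes swell or shrink. In rodents the abdominal and inguinal fat pads also surround the mammary ducts and lymph nodes. RNA from such a pad is a mixture, so fewer cells of a type and less RNA per cell cannot be told apart in any of the values given here.

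Expression is given as the signal of a probe set, a linear intensity scaled to a common trimmed mean on every array, and differences are RYGB-Success minus Pair-Fed on the log2 scale ± SE from a limma fit. All 6 arrays carried the adipocyte hormone gene Adipoq at 22558 to 44093 in RYGB-Success, against 25647 to 39668 in Pair-Fed, so this marker of the labelled tissue was bright on all 6. The median signal of an array was 162.9 to 200.0 in RYGB-Success, against 125.6 to 147.2 in Pair-Fed. The RYGB-Success arrays were less alike than the Pair-Fed arrays, with correlations among themselves of 0.796 to 0.818 against 0.854 to 0.864. RYGB-Success arrays 2 and 3 stood apart from array 1 in genes of glandular epithelium and milk, as detailed below. Of all fat arrays, the third RYGB-Fail array was the least like the others, with a median correlation of 0.73.

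No single probe set passed an adjusted p of 0.05 in the limma fit of RYGB-Success against Pair-Fed (0 of 18625), and the lowest adjusted p was 0.479. That fit pools the spread of all 9 fat arrays. The median within-group SD was 0.73 in RYGB-Fail, against 0.43 in RYGB-Success and 0.35 in Pair-Fed. With only the 6 compared arrays in limma the lowest adjusted p was 0.0939. In the limma fit of 9 arrays, 905 probe sets had an unadjusted p under 0.05. They were no more than the share of 0.05 that no difference anywhere would give on average. Of them 342 were higher and 563 lower, 1.84% and 3.02% of those tested. That balance turned with the arrays in the fit and their weights, with 1223 higher and 980 lower when only the 6 compared arrays were fitted, 1019 and 818 without RYGB-Fail array 3, and 1086 and 1016 with array weights. The 3 RYGB-Success arrays all lay above the 3 Pair-Fed arrays for 2038 probe sets (10.9%) and all below for 1432 (7.69%). Taking 1 probe set for each of 10145 named genes, these shares were 9.53% above and 9.04% below, and 1.89% and 3.65% had an unadjusted p under 0.05. Counts without overlap in the gene lists below stand against these 9.53% and 9.04% of all genes. The median difference was 0.11 over probe sets and 0.04 over genes. It was -0.02 after quantile normalization and -0.27 when arrays were centred on their medians, so small shifts of whole gene groups depend on the scaling. Giving noisy arrays less weight let 39 probe sets pass, 6 higher and 33 lower (0.209% of those tested), and all 39 had groups that did not overlap. Without RYGB-Success array 1, 22 passed, 19 higher and 3 lower (0.118%), and in 9 of them the full groups did not overlap. Mfap5 and Plac9 were the 2 that passed under both.

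**Figure D1:**
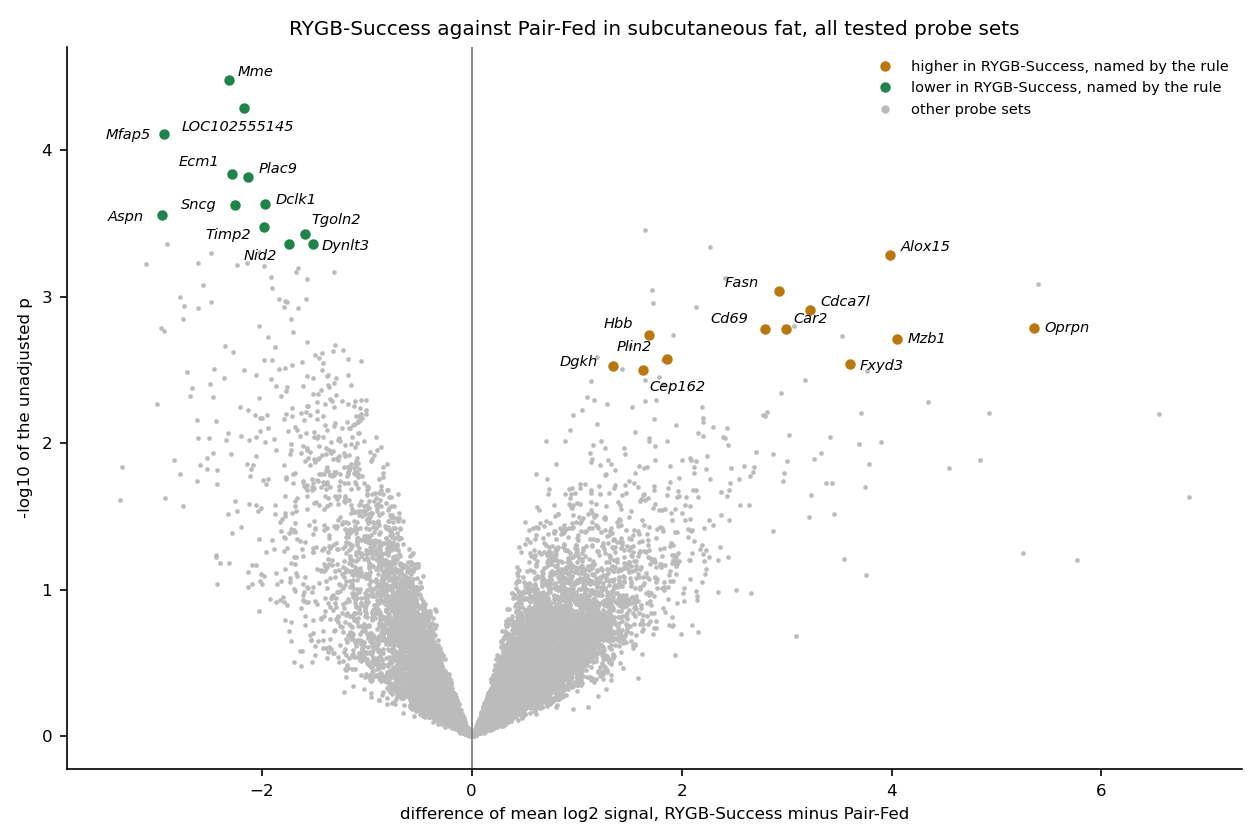
Difference of mean log2 signal, RYGB-Success minus Pair-Fed (horizontal axis), against the negative log10 of the unadjusted p from limma (vertical axis) for all 18625 tested probe sets of fat. Coloured points are the 12 higher and 12 lower genes with the lowest p among those whose groups did not overlap; the lower genes on the left reach smaller p than the higher genes on the right.

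The lower side was led by genes of the extracellular matrix and of the stromal cells that make it. Mme encodes neprilysin, a membrane peptidase that degrades peptide hormones and marks adipose progenitors. Its signal was 142, 184 and 170 in RYGB-Success, against 737, 655 and 1124 in Pair-Fed. Every RYGB-Success array lay far below every Pair-Fed array, with a difference of -2.31 ± 0.36 (limma, unadjusted p = 3.3e-05, adjusted p = 0.479). Mfap5, a protein of the microfibrils on which elastin is laid down, read 1683, 1042 and 381 in RYGB-Success, against 7423, 6706 and 5949 in Pair-Fed (-2.93 ± 0.50, adjusted p = 0.482). Ecm1, a secreted matrix glycoprotein, gave 974, 786 and 394 in RYGB-Success, against 3150, 3675 and 2967 in Pair-Fed (-2.28 ± 0.42). For both genes the Pair-Fed arrays sat close together, and RYGB-Success array 3 was the lowest of all. With array weights the 3 genes had an adjusted p of 0.036 each.

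Of the 16 collagens tested, 15 were lower in RYGB-Success, with a median difference of -1.22 against 0.04 over all genes. In 12 of the 16 the groups did not overlap, all 12 in the lower direction, where 9.04% of all genes did, and the same number had an unadjusted p under 0.05, against 3.65% of genes. Col5a1 encodes a chain of collagen V, which starts the assembly of collagen I fibrils. It read 687, 842 and 264 in RYGB-Success, against 3758, 2411 and 2218 in Pair-Fed (-2.35 ± 0.60), the widest gap among the collagens. Col6a2, part of the collagen VI network around adipocytes, read 2123, 1292 and 1228 in RYGB-Success, against 3980, 3849 and 2617 in Pair-Fed (-1.19 ± 0.37). The fibrillar collagens were among the brightest genes of the tissue. Col3a1 had 13632, 23030 and 4692 in RYGB-Success, against 28525, 30527 and 23115 in Pair-Fed, and Col1a2 had 12219, 11987 and 3425 in RYGB-Success, against 24204, 19731 and 17626 in Pair-Fed. Array 3 again had the lowest values, and for Col3a1 RYGB-Success array 2 nearly reached the lowest Pair-Fed array.

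Elastic fibre proteins and glycoproteins were lower in 25 of 29 members, with a median of -0.79. Without overlap 15 members were lower and 1 higher, against 9.04% and 9.53% of all genes. Fn1, fibronectin, which carries cell-binding sites in the matrix, read 294, 558 and 299 in RYGB-Success, against 3267, 1150 and 2292 in Pair-Fed (-2.48 ± 0.58). Nid2, a nidogen that links laminin to collagen IV in basement membranes, read 780, 726 and 472 in RYGB-Success, against 1638, 1734 and 3517 in Pair-Fed (-1.74 ± 0.36). Neither gene overlapped between the groups. Sparc, a collagen-binding glycoprotein and the brightest gene of this group, was closer between them, at 29971, 33615 and 12679 in RYGB-Success, against 41917, 41819 and 37860 in Pair-Fed (-0.79 ± 0.33), while a second, dimmer Sparc probe set had a difference of -2.61.

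The small leucine-rich proteoglycans, which bind collagen fibrils and set their spacing, followed the collagens. Of the 19 proteoglycans and relatives tested, 14 were lower, 10 of them without overlap, and the median was -1.03. Aspn, asporin, read 193, 266 and 98.7 in RYGB-Success, against 1829, 1907 and 667 in Pair-Fed (-2.95 ± 0.58). Dcn, decorin, read 4716, 4544 and 2163 in RYGB-Success, against 17333, 13984 and 7846 in Pair-Fed (-1.79 ± 0.62). Ogn, osteoglycin, read 1254, 596 and 648 in RYGB-Success, against 3365, 3232 and 2323 in Pair-Fed (-1.90 ± 0.43). None of these 3 genes overlapped between the groups.

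Among 26 enzymes and inhibitors of matrix crosslinking and turnover, 20 were lower, 10 of them without overlap, with a median of -0.47. Another 3 were higher without overlap, against 9.53% of all genes higher and 9.04% lower in this way. The median was -0.27 without RYGB-Success array 3, with 16 of 26 lower, and -0.83 without array 1. Timp2, an inhibitor of matrix metalloproteinases, gave 2312, 1245 and 922 in RYGB-Success, against 5191, 5738 and 5502 in Pair-Fed (-1.98 ± 0.40). A second Timp2 probe set had a difference of -0.73. Loxl1, which crosslinks elastin, read 211, 362 and 131 in RYGB-Success, against 838, 760 and 838 in Pair-Fed (-1.91 ± 0.42). Pcolce, an enhancer of procollagen processing, had 1079, 545 and 584 in RYGB-Success, against 2597, 2757 and 1957 in Pair-Fed (-1.78 ± 0.42). All 3 genes were lower on every RYGB-Success array.

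Markers of adipose progenitors and fibroblasts were lower in 25 of 29 members, 16 of them without overlap against 9.04% of all genes, with a median of -1.14. Another 3 were higher without overlap, a share near the 9.53% of all genes. Besides Mme, the lowest p-values belonged to Plac9, a small secreted protein, to Cd248, endosialin, a surface protein of stromal cells, and to Dclk1, a microtubule-binding kinase. Plac9 read 829, 403 and 307 in RYGB-Success, against 1574, 2153 and 2519 in Pair-Fed (-2.13 ± 0.39). Cd248 read 1347, 852 and 434 in RYGB-Success, against 4529, 2701 and 3487 in Pair-Fed (-2.14 ± 0.46). Dclk1 read 360, 420 and 235 in RYGB-Success, against 1434, 910 and 1642 in Pair-Fed (-1.97 ± 0.38), with -2.24 and -1.65 for its other probe sets. The 2 brightest markers behaved unlike each other. Fstl1, a secreted follistatin-like glycoprotein, had 17028, 17419 and 7645 in RYGB-Success, against 29052, 32564 and 25442 in Pair-Fed (-1.14 ± 0.36), whereas Gsn, gelsolin, which severs actin filaments and is not limited to stroma, overlapped at 38969, 25858 and 23388 in RYGB-Success, against 31219, 43768 and 29383 in Pair-Fed (-0.26 ± 0.36).

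Signalling genes tied to stromal cells showed part of the same pattern. Of 33 TGF-beta, BMP and Wnt genes, 21 were lower, 7 of them without overlap, and 0 were higher without overlap (median -0.20). Sfrp2, a secreted Wnt modulator, had 780, 978 and 532 in RYGB-Success, against 4495, 3697 and 1124 in Pair-Fed (-1.84 ± 0.50). Its relative Sfrp4 had 668, 561 and 153 in RYGB-Success, against 1769, 2667 and 1097 in Pair-Fed (-2.17 ± 0.59). Bmp4, a growth factor that drives progenitors toward the adipocyte fate, had 457, 236 and 251 in RYGB-Success, against 922, 633 and 641 in Pair-Fed (-1.26 ± 0.41). Nerve and Schwann cell genes included Gap43, a protein of growing axons, at 819, 1105 and 216 in RYGB-Success, against 2881, 2145 and 2256 in Pair-Fed (-2.05 ± 0.56), and Pmp22, a myelin protein also made by fibroblasts, at 6917, 6188 and 4870 in RYGB-Success, against 12128, 13511 and 11326 in Pair-Fed (-1.05 ± 0.28). Over the 11 members of that list, 5 were lower and 6 higher.

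**Figure D2:**
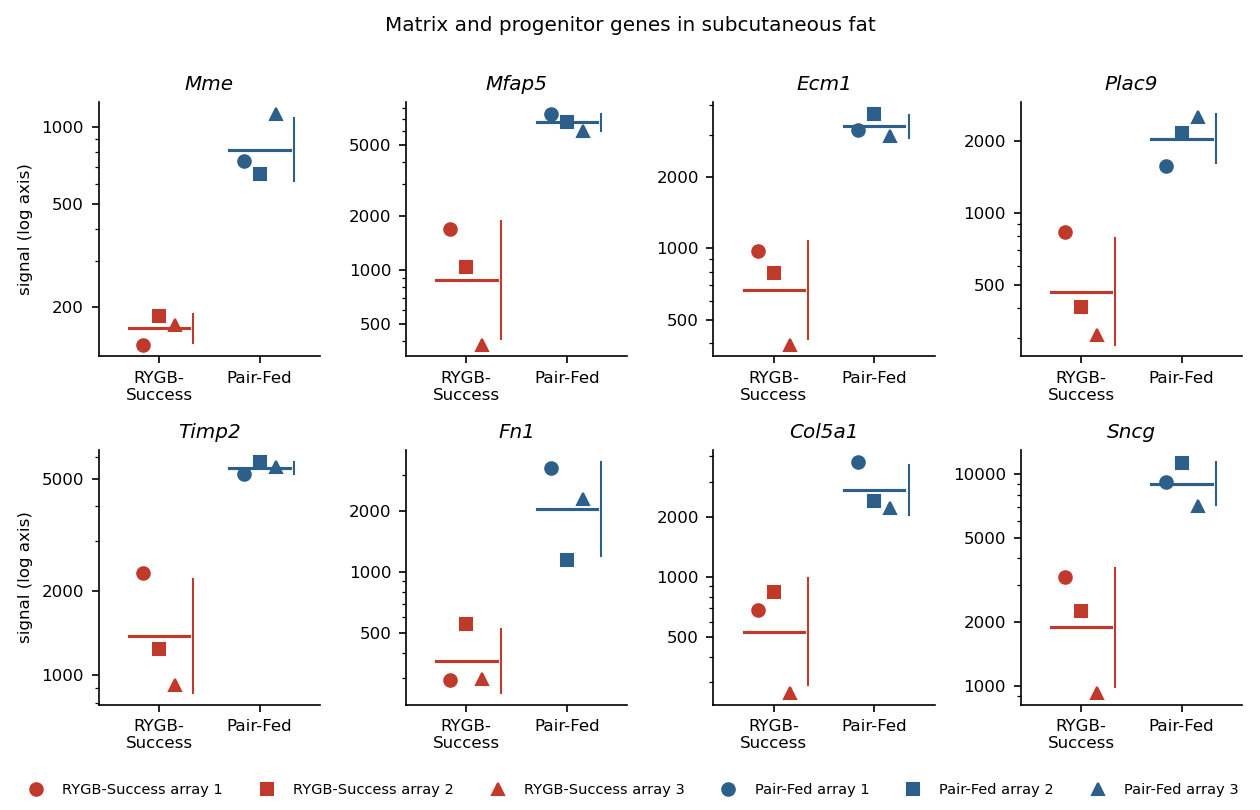
Signal (vertical log axes, scaled intensity) of 8 matrix and stromal genes on the 3 RYGB-Success arrays (left) and the 3 Pair-Fed arrays (right) of fat. Symbols mark replicate numbers, horizontal bars the mean of log2 signal and thin vertical bars 1 SD; in each panel all RYGB-Success arrays lie below all Pair-Fed arrays.

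The array-level mean of the collagen list, over all 17 on the array, was 11.06, 10.82 and 10.18 log2 units in RYGB-Success, against 11.70, 11.81 and 11.72 in Pair-Fed. On that scale array 1 was lower than each Pair-Fed array, by less than array 3 was. Epithelial keratin and junction genes had levels of 6.38, 8.58 and 8.12 on the same RYGB-Success arrays and 5.82, 6.19 and 6.11 in Pair-Fed. With the mean of 39 of these epithelial genes as a covariate in the fit, the collagen median was -0.65, with 14 of 16 members lower and 0 at an unadjusted p under 0.05, the proteoglycan median was -0.48 and that of the crosslinking and turnover enzymes -0.17. The progenitor median was -0.63, with 25 of 29 lower and 8 at an unadjusted p under 0.05. For elastic fibre proteins and glycoproteins the median was -0.65, with 22 of 29 lower and 6 lower at that p instead of 14. Mme kept a difference of -2.35 in that fit, Aspn -2.74 and Mfap5 -1.98, while Timp2 had -1.11 and Dcn -0.56. Without RYGB-Success array 3 the collagen median was -0.62, with 16 of 16 members lower and 4 at an unadjusted p under 0.05, and the progenitor median -0.75. The part of epithelial cells in the lower matrix values was not tested.

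The highest values on the other side belonged to genes of the secretory mammary epithelium, and they were carried by RYGB-Success arrays 2 and 3. Milk protein genes are normally active in the alveolar cells of the lactating gland under prolactin, whose receptor acts through the factor STAT5. The promoters of 4 genes of the mammary list are given because these genes were high on the same arrays, from 250 bases before to 50 after the start, 5′ to 3′ on the gene's strand, from RefSeq on the GRCr8 assembly. Csn1s1 lies at chr14:20638800-20639099, Csn3 at chr14:20439781-20440080, Oprpn at chr14:20001540-20001839 and Lalba at chr7:131507023-131507322, all on the minus strand. Capitals mark TTCNNNGAA, the palindrome bound by STAT dimers, which reads the same on both strands.
Csn1s1: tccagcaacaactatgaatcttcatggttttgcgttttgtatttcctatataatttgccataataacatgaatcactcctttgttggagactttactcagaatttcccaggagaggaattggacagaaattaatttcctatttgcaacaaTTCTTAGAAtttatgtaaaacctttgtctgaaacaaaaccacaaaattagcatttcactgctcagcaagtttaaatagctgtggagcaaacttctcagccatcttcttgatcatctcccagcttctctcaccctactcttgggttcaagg
Oprpn: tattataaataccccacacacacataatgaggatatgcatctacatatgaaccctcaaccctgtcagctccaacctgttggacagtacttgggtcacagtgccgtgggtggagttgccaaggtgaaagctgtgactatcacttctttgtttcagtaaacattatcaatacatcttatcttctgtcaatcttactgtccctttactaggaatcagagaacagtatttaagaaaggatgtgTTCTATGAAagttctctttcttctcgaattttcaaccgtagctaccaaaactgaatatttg
Csn3: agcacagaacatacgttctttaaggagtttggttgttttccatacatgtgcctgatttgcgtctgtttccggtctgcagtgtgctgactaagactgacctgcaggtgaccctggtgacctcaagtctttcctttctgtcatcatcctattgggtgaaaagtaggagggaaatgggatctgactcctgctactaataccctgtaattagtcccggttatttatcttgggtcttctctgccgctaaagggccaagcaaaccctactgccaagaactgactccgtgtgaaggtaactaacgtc
Lalba: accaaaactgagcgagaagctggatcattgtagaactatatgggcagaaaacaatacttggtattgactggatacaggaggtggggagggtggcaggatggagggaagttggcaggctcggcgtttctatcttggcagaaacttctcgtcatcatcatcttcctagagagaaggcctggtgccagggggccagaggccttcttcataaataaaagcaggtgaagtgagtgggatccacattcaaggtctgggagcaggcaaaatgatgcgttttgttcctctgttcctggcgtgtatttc
The motif stood in 2 of these 4 windows, and in 2970 of the 33469 promoter windows of the same length (8.87%). Windows were found for 25 of the 33 mammary genes on the array, of which 6 held it. A gene was counted if any of its windows did, so this count is not a share of windows.

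Csn1s1 encodes an alpha casein, Csn3 kappa casein and Lalba alpha-lactalbumin, the subunit that turns a galactosyltransferase toward making lactose. These 3 genes were picked after their values were seen. Csn1s1 read 77.8, 62091 and 48581 in RYGB-Success, against 50.6, 8.32 and 3418 in Pair-Fed. Lalba read 90.1, 60276 and 29080 in RYGB-Success, against 15, 5.93 and 1218 in Pair-Fed. Csn3 read 14.6, 22040 and 6934 in RYGB-Success, against 38.4, 4.99 and 210 in Pair-Fed. On RYGB-Success arrays 2 and 3 these were among the brightest signals of fat, on array 1 they were at the level of dim probe sets, and Pair-Fed array 3 had intermediate values, so the groups overlapped. Their differences of 5.77 ± 2.81, 6.83 ± 2.62 and 5.25 ± 2.48 for Csn1s1, Lalba and Csn3 therefore had wide errors (limma, adjusted p = 0.975, 0.856 and 0.975). The Pair-Fed means of Lalba and Csn3 lay under the lowest mean signal tested, 88.9, so their ratios are also given with every Pair-Fed array held at no less than that signal, which makes Lalba at least 25.4-fold and Csn3 at least 11.1-fold higher. That signal is the filter's and not a measured detection limit, and ratios written as at least are of this kind throughout.

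Olah encodes the thioesterase that releases medium-chain fatty acids from fatty acid synthase in the mammary gland of rats. It read 145, 45132 and 19855 in RYGB-Success, against 152, 62.1 and 589 in Pair-Fed (4.84 ± 1.66), and passed without RYGB-Success array 1 (limma, adjusted p = 0.00942). Oprpn was higher on all 3 RYGB-Success arrays, at 319, 5336 and 4004 in RYGB-Success, against 27.1, 55 and 65.8 in Pair-Fed (5.36 ± 1.32, at least 21.3-fold). Car2, carbonic anhydrase 2, gave 430, 5643 and 3276 in RYGB-Success, against 221, 225 and 321 in Pair-Fed (2.99 ± 0.74), with 3.18 for its other probe set. Elf5, a transcription factor of alveolar cells, gave 74.3, 1908 and 761 in RYGB-Success, against 41.9, 72.1 and 69.4 in Pair-Fed, and Mfge8, a milk fat globule protein, gave 233, 3123 and 1499 in RYGB-Success, against 333, 146 and 140 in Pair-Fed. Oprpn and Car2 were above Pair-Fed on array 1 as well, and Mfge8 was not. Xdh, xanthine dehydrogenase, which coats milk fat droplets and is also made by adipocytes, had the highest mean log2 signal of the list and differed by 0.24 ± 0.26, at 10272, 11237 and 9806 in RYGB-Success, against 9781, 9146 and 7610 in Pair-Fed.

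Of the 33 mammary secretory genes on the array 14 passed the filter on low signals, 12 of them higher, 6 without overlap, with a median of 2.71. A gene can pass the filter through its bright RYGB-Success arrays alone, and over all 33 the median was 1.99. Array means of the full list were 6.36, 9.06 and 8.96 in RYGB-Success, against 5.53, 6.11 and 6.44 in Pair-Fed. Epithelial keratin and junction genes were higher in 20 of 22 tested of 40 on the array, 9 without overlap, with a median of 1.45. Krt5, a keratin of basal epithelial cells, read 99.9, 1094 and 1070 in RYGB-Success, against 76.2, 35.2 and 82 in Pair-Fed (3.02 ± 0.96, at least 5.5-fold). Ocln, occludin of tight junctions, read 264, 958 and 612 in RYGB-Success, against 173, 201 and 114 in Pair-Fed (1.76 ± 0.51). Fxyd3, a regulator of the sodium pump in epithelia, read 106, 3069 and 1057 in RYGB-Success, against 61.6, 59.5 and 52.8 in Pair-Fed (3.60 ± 0.96, at least 7.89-fold). Array 1 was only slightly above Pair-Fed for Krt5 and Fxyd3. Lbp, a lipopolysaccharide-binding protein of liver and epithelia, followed the same arrays, at 141, 3331 and 2026 in RYGB-Success, against 219, 117 and 134 in Pair-Fed (2.71 ± 0.91, adjusted p = 0.00942 without array 1).

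**Figure D3:**
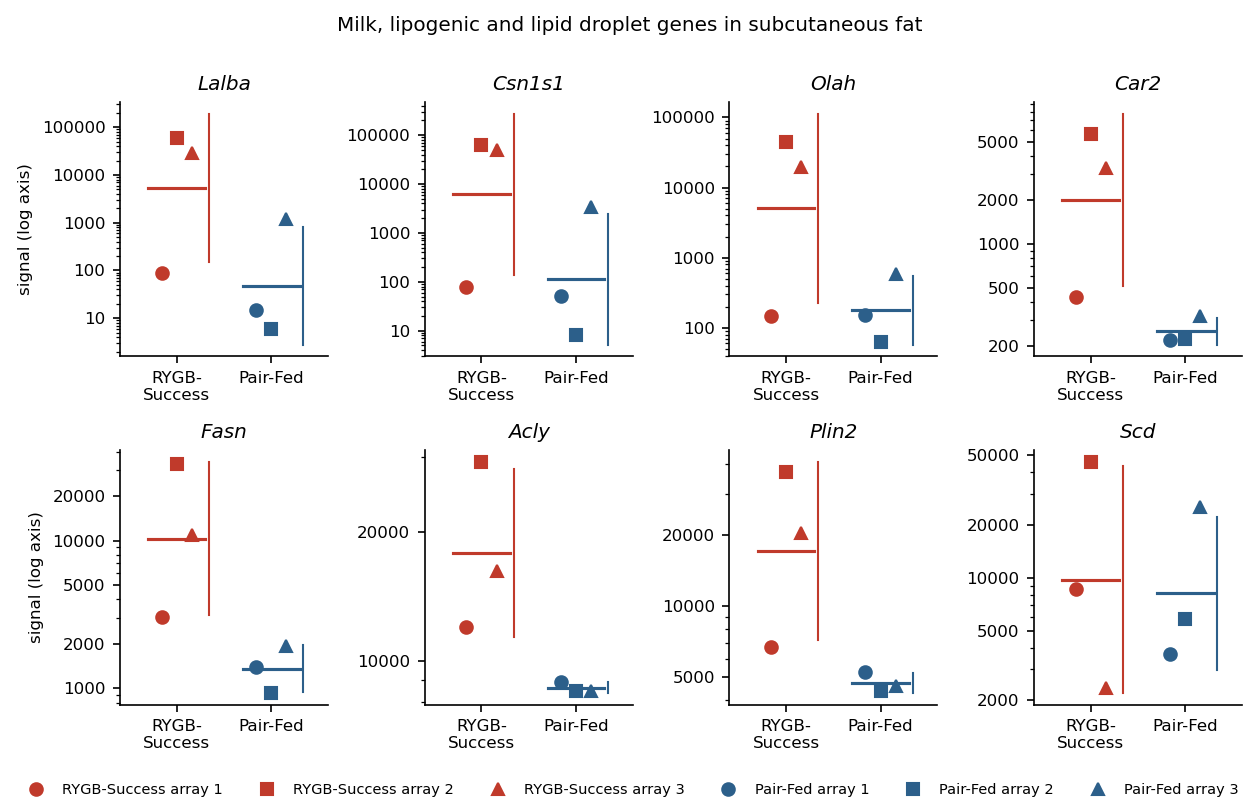
Signal (vertical log axes, scaled intensity) of milk genes (Lalba, Csn1s1, Olah), Car2 and lipid genes on the 3 RYGB-Success arrays (left) and the 3 Pair-Fed arrays (right) of fat, with the mean and 1 SD of log2 signal. RYGB-Success array 2 (square) is the highest point in every panel, and RYGB-Success array 1 (circle) lies near the Pair-Fed arrays for the milk genes.

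Some enzymes of fatty acid synthesis were higher on the same arrays. Of the 20 tested, 15 were higher, 6 without overlap and 2 at an unadjusted p under 0.05, with a median of 0.52, which was 0.15 when arrays were centred on their medians. Without RYGB-Success array 2, 11 of 20 were higher, near the 53.4% of all genes, with a median of 0.34, and without Pair-Fed array 1 the median was 0.30. Fasn, fatty acid synthase, gave 3033, 33047 and 10896 in RYGB-Success, against 1396, 930 and 1920 in Pair-Fed for its dimmer probe set (2.93 ± 0.67). The brighter Fasn probe set, which stands in the list, had a difference of 2.14. Acly, which supplies cytosolic acetyl-CoA, gave 12015, 29170 and 16175 in RYGB-Success, against 8926, 8498 and 8502 in Pair-Fed (1.05 ± 0.31). For both genes all RYGB-Success arrays, array 1 included, were above all Pair-Fed arrays, and array 2 was far above the rest. Tkt, transketolase of the pentose phosphate pathway, read 1581, 3523 and 1673 in RYGB-Success, against 1428, 965 and 1504 in Pair-Fed (0.72 ± 0.39). Acaca, acetyl-CoA carboxylase, the committed step, overlapped at 1261, 1256 and 683 in RYGB-Success, against 524, 487 and 1220 in Pair-Fed (0.60 ± 0.42). Scd, the desaturase that makes oleate, had 8591, 45667 and 2356 in RYGB-Success, against 3698, 5798 and 25187 in Pair-Fed (0.26 ± 0.90), with the order of arrays scrambled. Elovl5, an elongase and the brightest member, was even, at 20192, 24672 and 16236 in RYGB-Success, against 21182, 24805 and 23492 in Pair-Fed (-0.20 ± 0.25). Plin2, a coat protein of lipid droplets found in most lipid-storing cells and on milk fat droplets, gave 6713, 37170 and 20395 in RYGB-Success, against 5284, 4368 and 4600 in Pair-Fed (1.86 ± 0.49), while a second Plin2 probe set had -0.09.

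With the epithelial level as a covariate, Fasn had a difference of 1.43 for its dimmer probe set and 0.98 for its brighter one. Acly had 0.47 and Plin2 1.23, and the median of the fatty acid synthesis list was 0.13. Without RYGB-Success array 1, the dimmer Fasn probe set and Plin2 passed (limma, adjusted p = 0.0208 and 0.0255). The brighter Fasn probe set passed narrowly (limma, adjusted p = 0.0499). The mammary gland in milk and white fat both synthesise fatty acids with these enzymes. The part of mammary and epithelial cells in the higher values of Fasn, Acly and Plin2 was not tested.

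Adipocyte genes showed no such separation. Of 14 adipocyte markers tested 6 were higher and 8 lower, none without overlap, and the median was -0.09 (0 at an unadjusted p under 0.05), which was 0.19 without RYGB-Success array 3 and -0.40 without array 1. Adipoq read 44093, 39528 and 22558 in RYGB-Success, against 25647, 39668 and 29888 in Pair-Fed (0.12 ± 0.44). Lpl, the lipase that frees fatty acids from lipoproteins, read 42262, 40582 and 23881 in RYGB-Success, against 32043, 43672 and 34271 in Pair-Fed (-0.08 ± 0.42). Fabp4, the adipocyte fatty acid carrier, had 22468, 27784 and 24716 in RYGB-Success, against 17142, 39622 and 20059 in Pair-Fed (0.06 ± 0.34). Plin1, which guards the adipocyte lipid droplet, had a difference of -0.16 ± 0.37 and Pparg, the master factor of adipocyte formation, -0.44 ± 0.42. With SEs of 0.34 to 0.44 for these 5 genes and 3 arrays a group, differences the size of an SE could not be told from 0. An SE is not a detection limit, and somewhat larger differences could also be missed. Adipoq and Fabp4 turned negative under both scalings tried (Adipoq -0.25 and -0.25, Fabp4 -0.23 and -0.31, for quantile normalization and median centring).

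Several secreted and receptor genes of adipocytes were lower nonetheless. Among 24 adipokines and adipocyte regulators 15 were lower, 6 without overlap, against 9.04% of all genes. The median was -0.40, and it was -0.09 without RYGB-Success array 3 and -0.75 without array 1. Sncg, gamma-synuclein, which is abundant in adipocytes and sensory neurons, read 3260, 2258 and 930 in RYGB-Success, against 9185, 11296 and 7072 in Pair-Fed (-2.25 ± 0.43). Rarres2, the chemoattractant adipokine chemerin, read 5873, 2440 and 2196 in RYGB-Success, against 9321, 8084 and 8594 in Pair-Fed (-1.45 ± 0.38). Npy1r, a receptor for neuropeptide Y and peptide YY, read 1486, 863 and 360 in RYGB-Success, against 2111, 2565 and 2536 in Pair-Fed (-1.63 ± 0.49). All 3 were lowest on array 3 and lower on every RYGB-Success array.

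Both Igf1 and Ghr were lower on every RYGB-Success array. Igf1, the growth factor induced by growth hormone, gave 8039, 9527 and 3030 in RYGB-Success, against 13348, 23179 and 14842 in Pair-Fed (-1.44 ± 0.41), and its 2 other probe sets had -1.61 and -1.34. Ghr, the growth hormone receptor, gave 2428, 1569 and 1417 in RYGB-Success, against 3170, 3040 and 4576 in Pair-Fed (-1.01 ± 0.30). Over the 27 genes of insulin and growth hormone signalling, 14 were higher and 13 lower, with 4 lower and 1 higher without overlap (median 0.07), against 9.04% and 9.53% of all genes.

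Of 31 genes of lipid uptake, droplets and lipolysis, 20 were lower and 3 of them did not overlap, a share near the 9.04% of all genes. The median was -0.16, and -0.02 without RYGB-Success array 3. The 3 members without overlap were Npr3, Vldlr and Cidea. Npr3, the clearance receptor for natriuretic peptides, which promote lipolysis, read 392, 62.8 and 256 in RYGB-Success, against 561, 928 and 776 in Pair-Fed (limma, unadjusted p = 0.00669, adjusted p = 0.697). Vldlr, a receptor for triacylglycerol-rich lipoproteins, read 509, 585 and 498 in RYGB-Success, against 1019, 1243 and 1091 in Pair-Fed (-1.07 ± 0.38). Cidea, a lipid droplet protein also linked to thermogenic fat, read 880, 848 and 506 in RYGB-Success, against 1341, 1187 and 1498 in Pair-Fed (-0.89 ± 0.37). Slc2a4, the insulin-responsive glucose transporter, overlapped between the groups at 1181, 719 and 222 in RYGB-Success, against 869, 696 and 1543 in Pair-Fed. Lep, the hormone leptin, lay below the filter, at 8.19, 47.6 and 21.3 in RYGB-Success, against 89.4, 60.3 and 35.7 in Pair-Fed, and so did Ucp1, the uncoupling protein of brown fat, at 79.3, 81.3 and 223 in RYGB-Success, against 25.6, 48.4 and 100 in Pair-Fed.

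**Figure D4:**
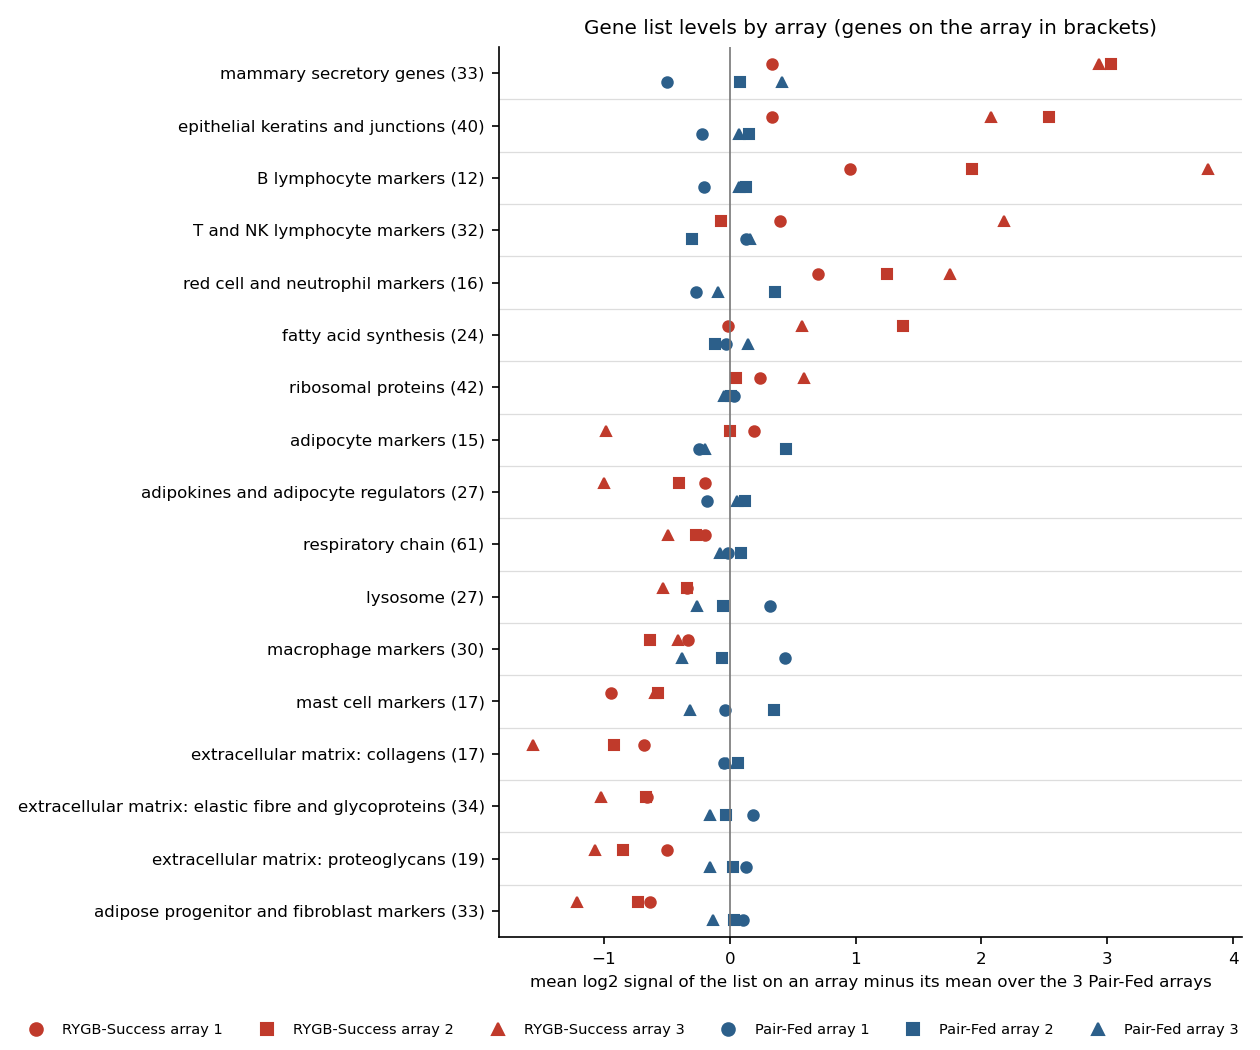
Mean log2 signal of 17 gene lists on each RYGB-Success array (upper row of each list) and Pair-Fed array (lower row), as the distance from the mean of the 3 Pair-Fed arrays (horizontal axis, log2 units); numbers in brackets are genes on the array. Matrix and progenitor lists lie left of 0 on all 3 RYGB-Success arrays, mammary and epithelial lists lie far right on arrays 2 and 3, and lymphocyte lists are furthest right on array 3.

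Lymphocyte genes were higher, and array 3 had the most of them. All 9 B lymphocyte markers tested of 12 on the array were higher, 5 without overlap, with a median of 1.92, and of 1.28 without RYGB-Success array 3. A gene can pass the filter through bright RYGB-Success arrays alone. Over all 12 on the array, each of them higher, the median was 1.81. With the epithelial level as a covariate the B lymphocyte median was 0.71, with 2 of 9 at an unadjusted p under 0.05 instead of 5, and the T and NK median 0.53. Mzb1, a protein of the endoplasmic reticulum of marginal zone B cells and plasma cells, gave 318, 421 and 1336 in RYGB-Success, against 4.96, 58 and 137 in Pair-Fed (4.05 ± 1.02, at least 5.49-fold). Ms4a1, the B cell antigen CD20, gave 122, 950 and 2774 in RYGB-Success, against 33.5, 83.2 and 43.4 in Pair-Fed (3.79 ± 1.31, at least 7.71-fold). Jchain, which joins secreted antibodies, gave 804, 586 and 951 in RYGB-Success, against 175, 261 and 384 in Pair-Fed (1.56 ± 0.49). The groups did not overlap for these 3 genes, and array 1 lay nearest to Pair-Fed for Mzb1 and Ms4a1.

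Of 24 T and NK cell markers tested, 22 were higher, 6 without overlap (median 0.98, and 0.28 without RYGB-Success array 3). Over all 32 on the array, of which 28 were higher, the median was 0.98. Cd69, an early activation antigen of lymphocytes, read 205, 175 and 714 in RYGB-Success, against 42.1, 30 and 61 in Pair-Fed (2.79 ± 0.69, at least 3.31-fold). Cd8a, of cytotoxic T cells, read 1006, 1054 and 6013 in RYGB-Success, against 785, 340 and 811 in Pair-Fed (1.63 ± 0.62), and Cd3e, of the T cell receptor complex, read 202, 261 and 2105 in RYGB-Success, against 234, 27.6 and 209 in Pair-Fed. Thy1 stands in this list and among the fibroblast markers, so it is not specific to lymphocytes here. It was lower, at 371, 126 and 291 in RYGB-Success, against 955, 654 and 1061 in Pair-Fed (-1.87 ± 0.48). Cdca7l, a nuclear protein that binds MYC and the lead gene of the cell cycle list, was higher as well, at 169, 431 and 627 in RYGB-Success, against 15.2, 60.4 and 61.8 in Pair-Fed (3.22 ± 0.76, at least 4.02-fold).

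Alox15 had the lowest p of the higher genes named by rank. It encodes a lipoxygenase that oxygenates arachidonic and linoleic acid, and it is made by eosinophils, some macrophages and epithelia. Its signal was 923, 562 and 2735 in RYGB-Success, against 49.1, 150 and 47.8 in Pair-Fed (3.99 ± 0.85, at least 10.6-fold; limma, unadjusted p = 0.000519, adjusted p = 0.482, and 0.036 with array weights). Unlike the milk genes it was far above Pair-Fed on array 1. In hypothalamus of the same groups its difference was 4.39 ± 0.57 (limma, adjusted p = 0.0214), and the fat minus hypothalamus contrast was -0.39 ± 1.12 (limma, adjusted p = 0.949). Of the 10 eosinophil and type 2 genes tested, Alox15 among them, 2 were higher and 2 lower without overlap, against 9.53% and 9.04% of all genes. Chi3l1, a chitinase-like protein, was higher, at 219, 631 and 1578 in RYGB-Success against 157, 137 and 107 in Pair-Fed, and Ccl24, an eosinophil chemokine, lower, at 170, 167 and 25.8 in RYGB-Success against 1217, 352 and 268 in Pair-Fed. Ptges, a prostaglandin E synthase, was lower, at 50.7, 101 and 139 in RYGB-Success, against 494, 252 and 389 in Pair-Fed (-2.03 ± 0.59).

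Red cell and neutrophil genes were higher in 6 of 7 members tested, 4 without overlap, with a median of 1.69, and 0.92 without array 3. Over all 16 on the array, of which 13 were higher, the median was 1.14. Hbb, a beta globin, read 17093, 14231 and 37918 in RYGB-Success, against 8121, 6943 and 4912 in Pair-Fed (1.69 ± 0.42). Alas2, the haem synthesis enzyme of red cell precursors, read 230, 258 and 1090 in RYGB-Success, against 112, 127 and 47.7 in Pair-Fed (2.19 ± 1.00, at least 3.71-fold). In hypothalamus the Hbb difference was 1.45, and the list's median was 2.59 over only the 4 members tested in both tissues. The amount of blood in the samples was not tested.

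**Figure D5:**
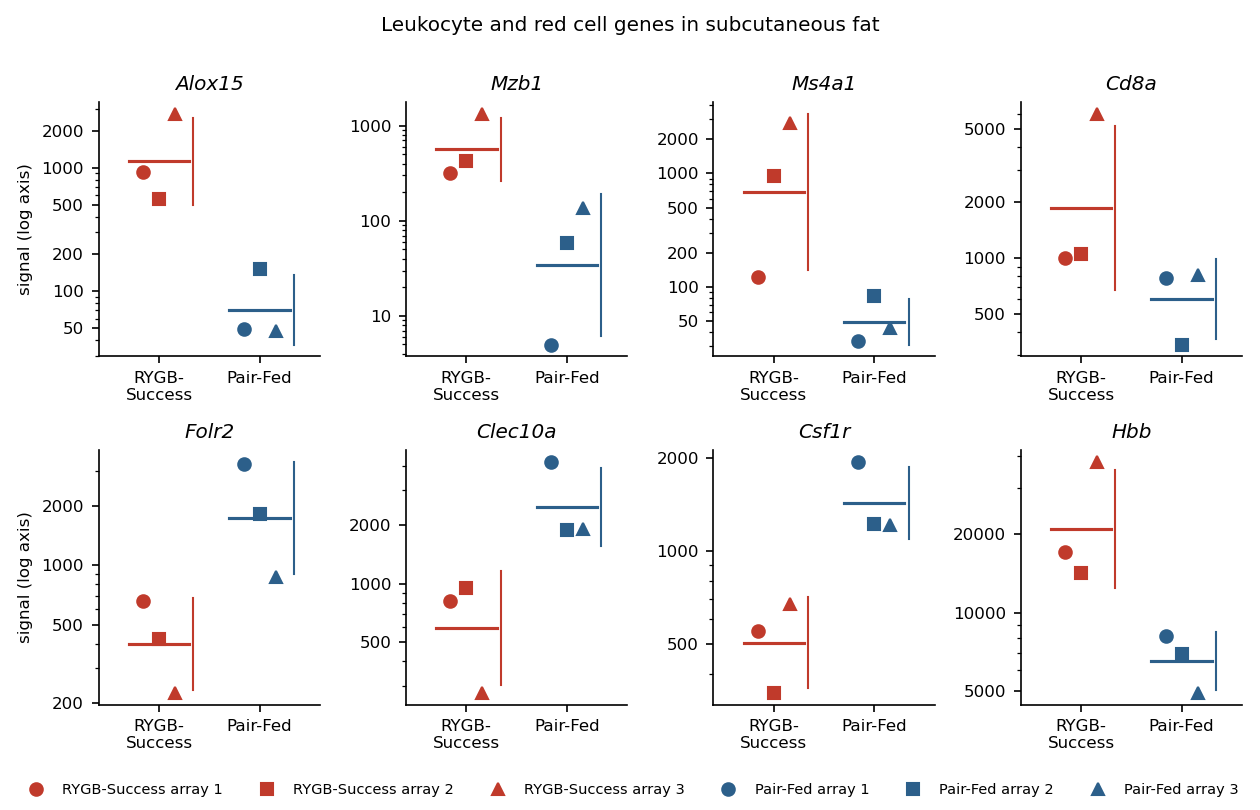
Signal (vertical log axes, scaled intensity) of Alox15, lymphocyte genes (Mzb1, Ms4a1, Cd8a), macrophage genes (Folr2, Clec10a, Csf1r) and Hbb on the 3 RYGB-Success arrays (left) and the 3 Pair-Fed arrays (right) of fat, with the mean and 1 SD of log2 signal. The groups do not overlap in any panel; the macrophage genes are lower in RYGB-Success and the other 5 genes higher, most of all on RYGB-Success array 3 (triangle).

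Macrophage genes went the other way from lymphocyte genes. Of 28 tested, 23 were lower, 7 of them without overlap, with a median of -0.42, and 1 was higher without overlap. The median was -0.24 without Pair-Fed array 1 and -0.75 without Pair-Fed array 3. Folr2, a folate receptor of tissue-resident macrophages, gave 656, 423 and 225 in RYGB-Success, against 3260, 1833 and 877 in Pair-Fed (-2.13 ± 0.64). Clec10a, a galactose-binding lectin of resident macrophages and dendritic cells, gave 811, 946 and 276 in RYGB-Success, against 4187, 1876 and 1898 in Pair-Fed (-2.05 ± 0.66). Csf1r, the receptor that macrophages need to survive, gave 551, 346 and 670 in RYGB-Success, against 1943, 1225 and 1215 in Pair-Fed (-1.50 ± 0.48). None of these 3 overlapped between the groups. Cd163, the scavenger receptor for haemoglobin, gave 3661, 3657 and 2587 in RYGB-Success, against 9060, 10985 and 3962 in Pair-Fed, and Mrc1, the mannose receptor, gave 8151, 8820 and 5325 in RYGB-Success, against 20071, 17632 and 10646 in Pair-Fed. In both genes the RYGB-Success arrays lay below the Pair-Fed arrays. Lyz2, lysozyme, the other bright marker, overlapped, at 10671, 6840 and 15952 in RYGB-Success, against 12340, 9156 and 7247 in Pair-Fed (0.17 ± 0.42), as did Cd68, a lysosomal protein of macrophages (-0.95 ± 0.61). With the epithelial level as a covariate 19 of the 28 were higher and the median was 0.18, so the direction of the macrophage list depended on that term.

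Genes that work with macrophages had mixed readings. Ccl2, which draws monocytes into fat, overlapped, at 395, 339 and 846 in RYGB-Success, against 1770, 891 and 752 in Pair-Fed (-1.13 ± 0.59), whereas Ccl6, a macrophage chemokine, was lower without overlap, at 10938, 11056 and 4672 in RYGB-Success, against 21404, 15180 and 16635 in Pair-Fed (-1.09 ± 0.47). Lysosomal genes were lower in 19 of 26 members, 7 without overlap, with a median of -0.39 that was -0.21 without RYGB-Success array 3 and turned to 0.06 with the epithelial covariate. Ctsh, cathepsin H, read 1699, 1436 and 1541 in RYGB-Success, against 7215, 5529 and 3643 in Pair-Fed (-1.76 ± 0.41, adjusted p = 0.0432 with array weights), and Ctsk, the collagen-degrading cathepsin K, read 158, 238 and 135 in RYGB-Success, against 1002, 761 and 320 in Pair-Fed (-1.86 ± 0.62). Mast cell markers were lower in 9 of 10 (median -0.35), 2 of them without overlap, against 9.04% of all genes.

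Genes of the protein-making and respiring machinery differed by small amounts in most of their members. All 41 ribosomal protein genes tested were higher, 19 without overlap, by a median of 0.34, but the median was -0.03 when arrays were centred on their medians. Rps16, the lead member, had 20977, 18355 and 21899 in RYGB-Success, against 14356, 12906 and 12779 in Pair-Fed (0.61 ± 0.22). Respiratory chain genes were lower in 53 of 61, 21 of them without overlap, by a median of -0.35, which was -0.23 without RYGB-Success array 3 and 0.09 with the epithelial level as a covariate. Of single genes, 1 ribosomal gene had an unadjusted p under 0.05 in the higher direction and 1 respiratory gene in the lower.

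Sugar transport and stress genes held single large readings. Slc2a1, the glucose transporter of most growing and epithelial cells, read 1955, 4890 and 8163 in RYGB-Success, against 1158, 1041 and 1473 in Pair-Fed (1.82 ± 0.51). Eno1, an enolase of glycolysis, read 1580, 2222 and 2373 in RYGB-Success, against 981, 990 and 1134 in Pair-Fed (0.97 ± 0.29). Of 18 glycolysis genes 11 were higher, 3 without overlap, against 53.4% and 9.53% of all genes. Their median was 0.16, and 0.27 without RYGB-Success array 2. Mt2A, a zinc-binding metallothionein induced by glucocorticoids and metals, read 6282, 6470 and 48865 in RYGB-Success, against 2293, 4137 and 2180 in Pair-Fed (2.20 ± 0.67), with array 3 far above the rest. Gstm2, a glutathione transferase, was lower, at 423, 435 and 121 in RYGB-Success, against 1671, 1257 and 1052 in Pair-Fed (-2.21 ± 0.66). Mx1, an antiviral protein induced by interferon, had its highest value on array 1 and overlapped slightly between the groups, at 4794, 1422 and 2534 in RYGB-Success, against 1475, 495 and 949 in Pair-Fed (1.55 ± 0.57). The immediate early genes Jun and Klf4 were lower without overlap, at -0.80 ± 0.32 and -1.25 ± 0.46, and Nr4a3, an orphan nuclear receptor of the same list, was higher without overlap, at 904, 742 and 852 in RYGB-Success against 515, 446 and 396 in Pair-Fed (0.88 ± 0.37). Of the 23 in that list 13 were higher, and the median was 0.01. Without overlap 3 were higher and 5 lower, against 9.53% and 9.04% of all genes.

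Among the other genes with the lowest p, Dgkh, a kinase that removes the lipid signal diacylglycerol, was higher at 3443, 2791 and 2039 in RYGB-Success against 1148, 758 and 1357 in Pair-Fed (1.35 ± 0.36). Cep162, a protein of centrioles, was higher at 358, 411 and 517 in RYGB-Success against 157, 83.8 and 194 in Pair-Fed (1.63 ± 0.44). All RYGB-Success arrays were above all Pair-Fed arrays for both genes, and below them for the 3 that follow. Tgoln2, a protein of the trans-Golgi network, was lower at 404, 372 and 382 in RYGB-Success against 1096, 1555 and 919 in Pair-Fed (-1.59 ± 0.32), though its other probe sets had -0.94 and -0.17. Dynlt3, a light chain of the motor dynein, was lower at 2603, 3699 and 2054 in RYGB-Success against 6674, 9609 and 7103 in Pair-Fed (-1.51 ± 0.31). LOC102555145, a locus with no assigned role, was lower at 792, 635 and 400 in RYGB-Success against 1972, 2865 and 3217 in Pair-Fed (-2.17 ± 0.35).

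Whether fat differed from hypothalamus in the effect was asked with an interaction term over the 15531 probe sets tested in both tissues. With limma 0 passed, 1249 had an unadjusted p under 0.05 and the lowest adjusted p was 0.193. Without fat RYGB-Success array 1, 30 passed. The fit took the arrays of both tissues as independent, although fat and hypothalamus samples may share animals. Deviations of fat and hypothalamus arrays with the same replicate number correlated at 0.161, 0.057 and 0.204 in Pair-Fed. In RYGB-Success these correlations were 0.015, -0.033 and -0.044. Whether the samples share animals was not settled. List medians in hypothalamus cover only members tested in both tissues. For RYGB-Success minus Pair-Fed they were -0.28 over 12 collagens, 0.14 over 16 progenitor and fibroblast markers and 0.17 over 7 mammary genes. They were 0.05 over 19 fatty acid synthesis genes and 0.34 over 25 macrophage markers.

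The RYGB-Fail fat samples were compared with the same Pair-Fed arrays, so the values of both comparisons are not independent and are only set side by side. For RYGB-Fail minus Pair-Fed the median was -0.75 for collagens, -0.47 for progenitor and fibroblast markers, -0.12 for mammary genes, -0.21 for fatty acid synthesis, 0.27 for B lymphocyte markers and -0.46 for macrophage markers. For RYGB-Success minus RYGB-Fail, which shares the RYGB-Success arrays, the median was -0.33 for collagens, -0.78 for progenitor and fibroblast markers, 2.81 for mammary genes, 0.57 for fatty acid synthesis, 1.47 for B lymphocyte markers and -0.17 for macrophage markers. Mme read 142, 184 and 170 in RYGB-Success, against 625, 540 and 489 in RYGB-Fail. Skeletal muscle genes had array means of 6.33, 6.21 and 7.28 in RYGB-Success, 9.74, 12.80 and 7.68 in RYGB-Fail, and 5.59, 6.21 and 5.21 in Pair-Fed.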

How the data were processed

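RNA of subcutaneous fat was extracted with a Qiagen RNeasy kit, amplified with NuGEN WT-Ovation and hybridised to arrays of 31099 probe sets, per the labels' protocols. The authors deposited a linear intensity for each probe set. The submitters' processing notes name MAS5 and GCOS, whose versions and settings are not given in the sources used here. The deposited intensities had nearly equal trimmed means on all 18 arrays, which leaves medians free to differ. Detection calls were not used here. Array depth has no counterpart, and 3 arrays a group limit the precision.

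From these, log2 values with no pseudocount were computed, 57 control probe sets were left out, and the upper 60% by mean in fat were kept (18625, mean signal at least 88.9). Gene names came from the platform annotation (20826 probe sets with 1 symbol, 436 with several, 9780 with none), of which 20758 gene identifiers matched RefSeq. limma 3.58.1 in R 4.3.3 fitted the 9 fat arrays as 3 groups (lmFit, eBayes with trend, 2-sided), with Benjamini-Hochberg adjustment at 0.05, and the interaction used all 18 arrays with weights by tissue. The limma step was tested on simulated data. Python 3.11.15, pandas 2.3.3 and matplotlib 3.10.9 did the rest.

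Named genes are the 12 higher and 12 lower with the lowest p where the groups did not overlap and differed by 1.5-fold or more, up to 4 lowest-p and 2 brightest members of each list described, anchor genes of fat biology, and probe sets passing under an alternative. Exceptions are stated. The 47 lists hold 1363 names, of which 1168 genes were on the array and 936 were tested, each as its brightest probe set. Members and lists were chosen with earlier results of these data known. Lists share genes. Alternatives were the filter, a pseudocount, 2 other scalings, array weights, the samples in the fit, an epithelial covariate, the replicate number as a block and leaving out each array. The main fit did not pair samples by replicate number. Correlations of deviations between RYGB-Success and Pair-Fed fat arrays of the same number were 0.025, -0.087 and 0.032. With 3 arrays a group these values cannot settle whether the numbers pair samples.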

Additional observations from a re-analysis of the deposited data

How the results depend on the processing

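With limma, the count of 0 passing probe sets (905 at an unadjusted p under 0.05) became 39 with array weights and ran from 0 to 22 when single arrays were left out, 22 being without RYGB-Success array 1; the 0 of the fat minus hypothalamus contrast ran from 0 to 30, 30 also being without that array. The cause was not tested. Probe sets at an unadjusted p under 0.05 numbered 1444 with no filter, 2102 with array weights, 2203 with only the 6 arrays, 419 with the epithelial covariate and 496 to 1837 when single arrays were left out. With the replicate number as a block they numbered 1118 and 0 passed. Whether the replicate numbers pair samples was not settled. Higher ones made up 37.8% of the probe sets at an unadjusted p under 0.05 in the main limma fit. That share was 30.5% after quantile normalization, 18.6% after median centring, 52.4% with no filter and 55.5% with only the 6 arrays. Of 611 list medians under alternatives 570 stayed within 1 SD of the array means. Of 107 genes tested under 16 alternatives, 12 changed sign somewhere: with the epithelial covariate Scd was -0.31, Csn3 -0.90, Prom1 -0.51, Cd68 0.16, Adipoq -0.44, Fabp4 -0.46, Slc2a4 0.60 and Ucp2 -0.10; with median centring Scd was -0.11, Xdh -0.13, Prom1 -0.30, Lyz2 -0.20, Adipoq -0.25 and Fabp4 -0.31; with quantile normalization Adipoq was -0.25 and Fabp4 -0.23; with array weights Lpl was 0.03 and Plin1 0.00. Leaving out single arrays gave -0.86 to 1.28 for Scd, -0.16 to 0.34 for Prom1, -0.06 to 0.42 for Adipoq, -0.18 to 0.42 for Fabp4, -0.22 to 0.19 for Lpl, -0.13 to 0.48 for Lyz2 and -0.42 to 0.20 for Plin1. MAS5 signals near the filter's 88.9 scatter widely on a log scale, which limits the dim genes most.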
